A study of Mus musculus with 3 samples.

Results

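The enzymes and transporters that make, export and destroy sphingosine-1-phosphate (S1P) were followed in single-cell RNA counts of mouse aortic arch intima, taken from its lesser curvature, a site of disturbed flow. They are 9 of the 32285 genes counted, found by symbol in all 3 libraries: the kinases Sphk1 and Sphk2, the exporters Spns2 and Mfsd2b, the lyase Sgpl1, the S1P phosphatases Sgpp1 and Sgpp2, and the lipid phosphate phosphatases Plpp1 and Plpp3. Cells came from C57BL/6J wildtype mice of 12 to 13 weeks, males and females pooled, perfused with the transcription blocker actinomycin D before a collagenase D digestion. The LPS group, 1 library, was of mice given 30 µg of ultrapure lipopolysaccharide intravenously 18 h before harvest. The control group, 2 libraries, was of untreated mice, and each library pooled 5 to 10 animals. Lipopolysaccharide (LPS) is a bacterial cell wall product sensed by Toll-like receptor 4. No label says whether the control libraries were separate experiments, so p-values measure the spread between these samples only, which may be technical.

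Sphingosine kinases phosphorylate sphingosine to S1P inside the cell, and exporters carry it out, so that S1P is high in blood and lymph and low within tissues. Endothelial cells export it through Spns2 and red cells and platelets through Mfsd2b. Inside the cell the lyase cleaves S1P irreversibly and the S1P phosphatases return it to sphingosine, while the lipid phosphate phosphatases act on lipid phosphates at the cell surface. S1P receptors on endothelium and leukocytes read the resulting gradient.

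The libraries differed in depth and makeup. There were 21864072 UMIs (molecule tags, so that each captured RNA is counted once) over 6000 barcodes with LPS, against 4940996 over 1269 in control replicate 1 and 20069697 over 4813 in control replicate 2. Of the 5156 LPS barcodes kept after filtering, 3729 (72.3%) lay in unnamed sub-clusters rich in Gm42418, a ribosomal RNA-like transcript, against 2 in control replicate 1 and 0 in control replicate 2. Libraries shared 1 to 6 barcodes in a pair, of which at most 1 was kept in both. Classes were rebuilt from marker genes and are named as likeness. The classes of 20 cells or more in all 3 libraries were endothelial-like (167 LPS cells, 97 and 110 in control replicates 1 and 2), fibroblast-like (165 LPS, 26 and 74 control), macrophage-like (129 LPS, 61 and 199 control) and lymphoid-like cells (94 LPS, 164 and 1697 control). LPS and control cells lay in different sub-clusters in the endothelial-like and fibroblast-like classes, and all but 1 LPS cell did in the macrophage-like class. In the lymphoid-like class 47 and 31 of the 94 LPS cells lay in 2 sub-clusters that held 3 control cells. Treatment and sub-type therefore cannot be told apart within these classes. All 10 endothelial and all 8 fibroblast markers were detected in their classes in every library, but their summed level was lower in the LPS library: 5159 CPM, the count scaled to a common class total, in LPS endothelial-like cells, against 7008 and 8885 in the controls, and 13587 CPM in LPS fibroblast-like cells, against 29118 and 26555 in the controls. Each level is the CPM of a gene in 1 class of 1 library, and control values are given as replicate 1, then replicate 2. Levels are compared within a gene only, since 3' counts of different genes are not on a common scale.

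**Figure D1:**
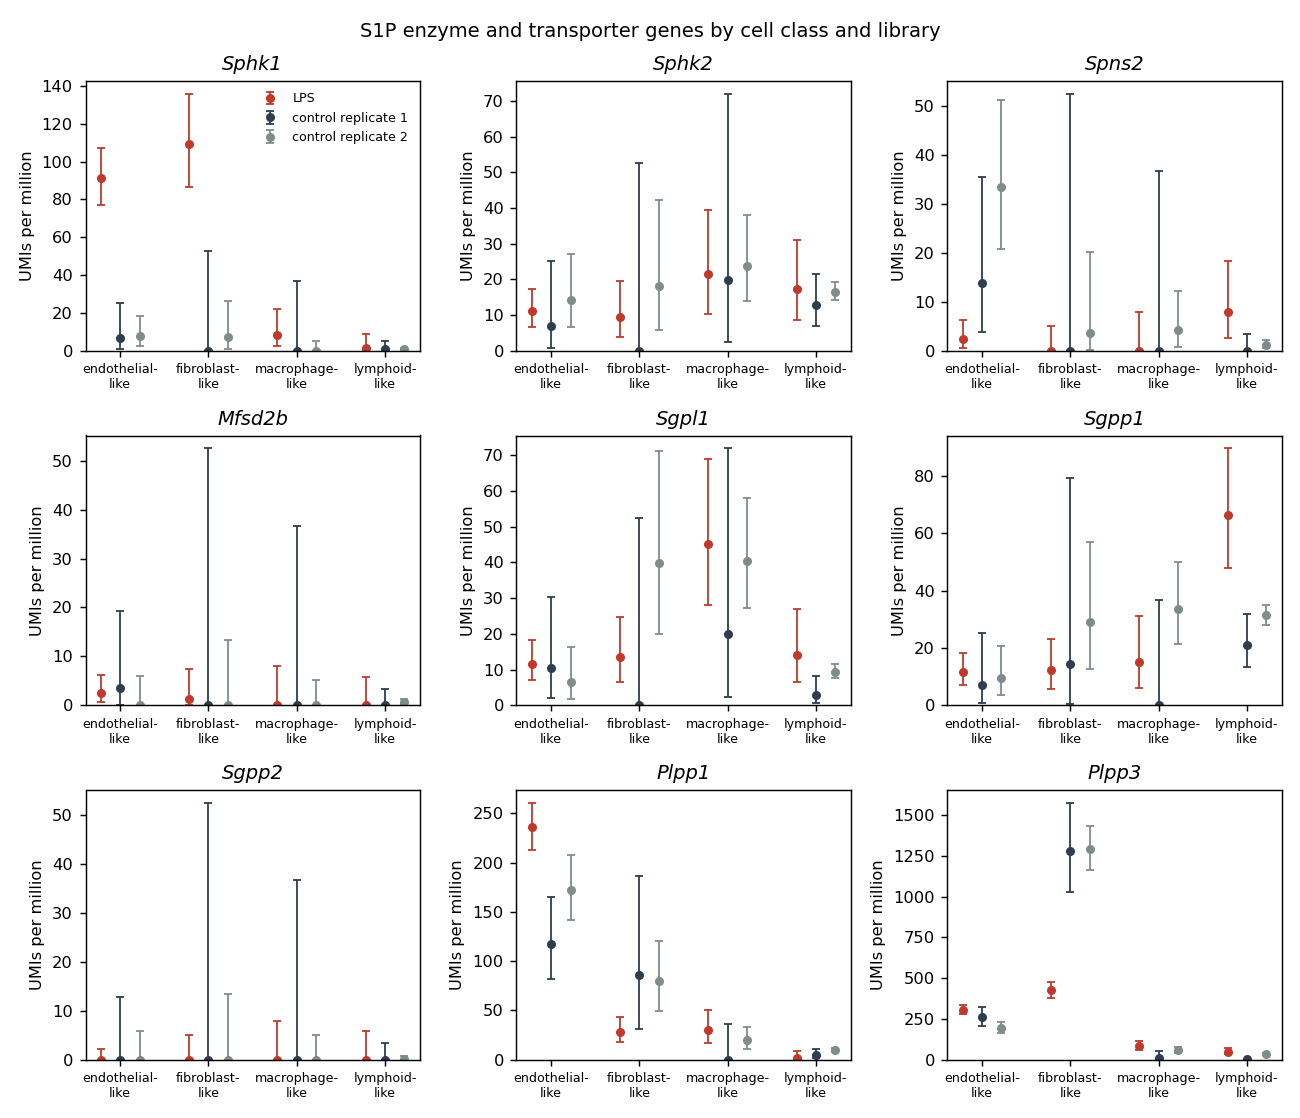
Level of each of the 9 genes in CPM in the 4 tested classes, with LPS in red to the left of control replicates 1 and 2 in dark and light grey; points are sums over cells and bars exact Poisson 95% intervals, which cover counting error only. Sphk1 lies at 91.3 and 109 in LPS endothelial-like and fibroblast-like cells and below 10 in their controls, and Plpp3 at 426 in LPS fibroblast-like cells, against 1282 and 1295 in the controls.

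Sphk1, the inducible sphingosine kinase of the cytosol (chr11:116530925-116536674, plus strand, mm10), was higher with LPS in endothelial-like and in fibroblast-like cells. The gene has 5 annotated starts with a promoter window in RefSeq (GRCm38.p6). 3 of them are shown because Sphk1 was the 1 member called with LPS, and because LPS signalling acts through NF-kB, AP-1 and STAT factors, whose motifs were searched on both strands. Each window runs from 250 bases before the start to 50 after it, and capitals mark matches. The first is at chr11:116530850-116531149, the third, which overlaps the second, at chr11:116531661-116531960, and the fourth, which overlaps the fifth, at chr11:116532194-116532493, all on the plus strand.
Sphk1 window 1: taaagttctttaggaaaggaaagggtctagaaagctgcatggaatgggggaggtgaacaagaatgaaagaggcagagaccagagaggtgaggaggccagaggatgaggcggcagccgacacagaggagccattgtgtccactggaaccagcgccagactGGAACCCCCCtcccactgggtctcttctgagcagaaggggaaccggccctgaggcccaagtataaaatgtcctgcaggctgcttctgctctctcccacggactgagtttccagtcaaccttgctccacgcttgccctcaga
Sphk1 window 3: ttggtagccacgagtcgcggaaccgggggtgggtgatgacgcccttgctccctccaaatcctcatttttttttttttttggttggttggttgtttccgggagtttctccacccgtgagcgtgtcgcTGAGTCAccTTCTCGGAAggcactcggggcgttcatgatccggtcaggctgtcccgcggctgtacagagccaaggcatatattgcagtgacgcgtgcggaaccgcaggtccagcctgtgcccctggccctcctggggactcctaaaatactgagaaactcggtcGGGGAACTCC
Sphk1 window 4: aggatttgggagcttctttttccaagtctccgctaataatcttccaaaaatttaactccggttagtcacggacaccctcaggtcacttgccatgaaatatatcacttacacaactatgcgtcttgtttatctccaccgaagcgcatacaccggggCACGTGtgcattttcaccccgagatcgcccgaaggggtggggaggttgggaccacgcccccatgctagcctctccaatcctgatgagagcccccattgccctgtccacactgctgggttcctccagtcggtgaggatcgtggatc

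The first window held the NF-kB consensus once on the minus strand, and the third held it once on the plus strand. The third also held an AP-1 motif (TGANTCA) and, 2 bases on, a STAT motif (TTCNNNGAA), which the second window shares. The fourth window and the fifth share an E-box (CACGTG). Of 32851 promoters of the same length, 8.46% held the NF-kB consensus, 7.81% the AP-1 motif, 8.30% the STAT motif and 7.15% the E-box, which is the background for these matches. The shares are per window, and 5 windows were searched for Sphk1, against 2 for Sphk2 and 1 for each other member searched. None of the windows of Sphk2, Spns2, Mfsd2b, Sgpl1, Sgpp1, Sgpp2 and Plpp3 held an NF-kB, AP-1 or STAT match. The 1 Spns2 window, at chr11:72474978-72475277, lay inside the gene. Its annotated start on the minus strand, at 72489904, was not searched. GC boxes (GGGCGG), which 35.7% of all promoters held, were found in those of Sphk2, Mfsd2b, Sgpl1, Sgpp2 and Plpp3 and in no Sphk1 window, and Sgpp2 also held an E-box. A match is a description of letters, not of a site in use.

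In endothelial-like cells Sphk1 had 149 UMIs in the LPS library, against 2 and 5 in the controls. These are 91.3 CPM with LPS (95% Poisson interval 77.2 to 107), against 6.93 (0.839 to 25.04) and 7.98 (2.59 to 18.6). The LPS value lay far above both controls, which lay close together. The fitted log2 fold change was 3.68 ± 0.67 (SE; 1 LPS library against 2 control libraries; edgeR quasi-likelihood test, adjusted p = 1.41e-08), and it was 3.63 without control replicate 1 and 3.67 without control replicate 2. It was the 1 member called among the 4 that passed the filter on low counts in this class. Of all 8636 genes tested there 11.6% were called, 6.01% as higher and 5.58% as lower. Sphk1 was also called by DESeq2 (adjusted p = 0.0232). After free RNA was subtracted no gene of the class was called (Sphk1 log2 fold change 3.48, adjusted p = 0.969), although the estimate for Sphk1 was 1.73% of its LPS UMIs.

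The increase was spread over cells. In the LPS library 71 of 167 endothelial-like cells (42.5%) had a Sphk1 UMI, 37 of them more than 1 and none more than 9, against 2 of 97 (2.06%) and 5 of 110 (4.55%) in the controls, none with more than 1. Median UMIs per cell were 4918 with LPS, against 1198 and 3115.5, so cells were also thinned to 1000 UMIs each, which left out 35 cells of control replicate 1. A Sphk1 UMI then remained in 20 of 167 LPS cells (12.0%, exact 95% interval 7.47 to 17.9), against 0 of 62 control replicate 1 cells, which by the floor of 3 counts allows a share of up to 4.84%, and 3 of 110 control replicate 2 cells (2.73%, 0.566 to 7.76). In lymphoid-like cells, taken as the background for free RNA, the thinned shares were 0 of 94 with LPS, against 0 of 162 and 1 of 1697 in the controls, at median depths of 5662.5, 3927 and 4160 UMIs. The 3 LPS endothelial-like sub-clusters, of 98, 52 and 17 cells, lay at 87.1, 94.7 and 81.5 CPM. The control sub-clusters with at least 10 cells of a library lay between 0 and 15.1 CPM, below each of the LPS sub-clusters.

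Other markers moved with this class. The lymphatic endothelial list of 6 genes summed to 242 CPM in LPS endothelial-like cells (4 of 6 detected, Ccl21a and Reln at 0), against 48.5 and 27.1 CPM in the controls (3 of 6 detected in each, with Mmrn1, Ccl21a and Reln at 0). The monocyte list of 7 genes summed to 156 CPM with LPS, against 48.5 and 30.3 CPM, with Ccr2 at 0 in LPS. In control replicate 1 Vcan alone of that list was detected. Monocyte-like and neutrophil-like LPS cells themselves had Sphk1 at 9.03 and 5.33 CPM. Gm42418 took 12.6% of the UMIs of LPS endothelial-like cells, against 17.1% and 1.81% in the controls. The part of lymphatic cells and of RNA quality in the Sphk1 result was not tested.

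In fibroblast-like cells Sphk1 had 81 UMIs with LPS, against 0 and 2 in the controls. These are 109 CPM with LPS (86.8 to 136), against 0, where 3 UMIs would be 42.7 CPM, and 7.24 (0.876 to 26.1). The fitted log2 fold change was 4.58 ± 1.17 (edgeR, adjusted p = 1.63e-06). It was called among 4 members tested, beside 12.7% of all 5396 genes tested, 7.8% as higher and 4.89% as lower. Set against both controls together, the ratio was 18.9 with a counting interval of 5.08 to 159. Against control replicate 1 alone, with 3 UMIs as its floor, the LPS point value was 2.56-fold higher. That ratio leaves out counting error and is no lower bound. DESeq2 did not call it (no adjusted p by default, 0.301 without independent filtering), nor did edgeR after free RNA was subtracted (4.53, adjusted p = 0.628).

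Fibroblast-like Sphk1 differed between the LPS sub-clusters. The 32 deeper cells, with a median of 8356 UMIs, lay at 156 CPM, and the 133 shallower cells, with a median of 2218, at 51.5 CPM. After thinning to 1000 UMIs, 11 of 165 LPS cells (6.67%, 3.37 to 11.6) had a UMI, against 0 of 14 and 0 of 74 control cells, which by the floor of 3 counts allow up to 21.4% and 4.05%. The monocyte list summed to 1438 CPM in LPS fibroblast-like cells (6 of 7 detected, Ccr2 at 0), against 427 and 311 CPM in the controls (3 and 2 of 7 detected). The genes detected were Ly6c2, Plac8 and Vcan in control replicate 1, and Plac8 and Vcan in control replicate 2. Gm42418 took 38.1% of UMIs in the shallower LPS cells and 10.1% in the deeper ones. The part of the list and of RNA quality in the Sphk1 result was not tested. The Sphk1 response was not shown to differ between endothelial-like and fibroblast-like cells, with a difference of −1.004 ± 1.51 (log2, SE; edgeR interaction, adjusted p = 1).

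Sphk1 UMIs were few in macrophage-like and lymphoid-like cells. Macrophage-like cells had 4 in the LPS library, 3 of them in 1 cell, against 0 and 0, where 3 UMIs would be 29.9 and 4.19 CPM. Lymphoid-like cells had 1 with LPS, against 1 and 7. Sphk1 did not pass the low-count filter in either class. Sphk1 was abundant in a sub-cluster of 7 LPS dendritic-like cells, too few for a class, whose leading genes were Ccl17, Ccl22, Fscn1 and Ccr7. All 7 had a UMI, 52 in all and up to 17 in 1 cell, or 338 CPM (253 to 444) at a median depth of 22291 UMIs, with no control cell in that sub-cluster. With the monocyte-like and dendritic-like cells added to the macrophage-like ones, Sphk1 had 65 UMIs with LPS, against 0 and 0, and was called (log2 8.16, adjusted p = 0.000284), a fold fitted against 0 UMIs and so no bound. The difference of the response between endothelial-like and lymphoid-like cells was 2.46 ± 1.98 (log2, SE) and was not called (edgeR, adjusted p = 0.897).

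Outside the tested classes, Sphk1 was measured with 10 UMIs (33.7 CPM) in 33 LPS mesothelial-like cells, against 1 UMI (18.6 CPM, 0.471 to 104) in 26 of control replicate 2. The 24 LPS adipocyte-like cells had 6 UMIs (72.5 CPM), with no control class of that size. The Gm42418-rich LPS barcodes held 212 UMIs at 27.4 CPM (23.8 to 31.3), beside 149 in endothelial-like and 81 in fibroblast-like LPS cells.

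Sphk2, the other sphingosine kinase, found largely in the nucleus and at organelle membranes (chr7:45709467-45718002, minus strand), showed no such pattern. In endothelial-like cells it was 11.03 CPM with LPS, against 6.93 and 14.4, and the LPS value lay between the controls. Macrophage-like cells had 21.5 CPM with LPS, against 19.9 and 23.7 (log2 fold change 0.23 ± 1.02, edgeR, adjusted p = 0.984). Lymphoid-like cells had 17.4 CPM, against 12.9 and 16.6 (0.35 ± 0.55, adjusted p = 0.809). In fibroblast-like cells it had 7 UMIs with LPS, against 0 and 5, under the filter there as in endothelial-like cells. Among classes of at least 20 cells, the highest Sphk2 levels were in LPS monocyte-like and neutrophil-like cells, at 35.1 (24.5 to 48.9) and 32.0 (16.5 to 55.9) CPM, whose intervals overlap each other and that of macrophage-like cells.

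**Figure D2:**
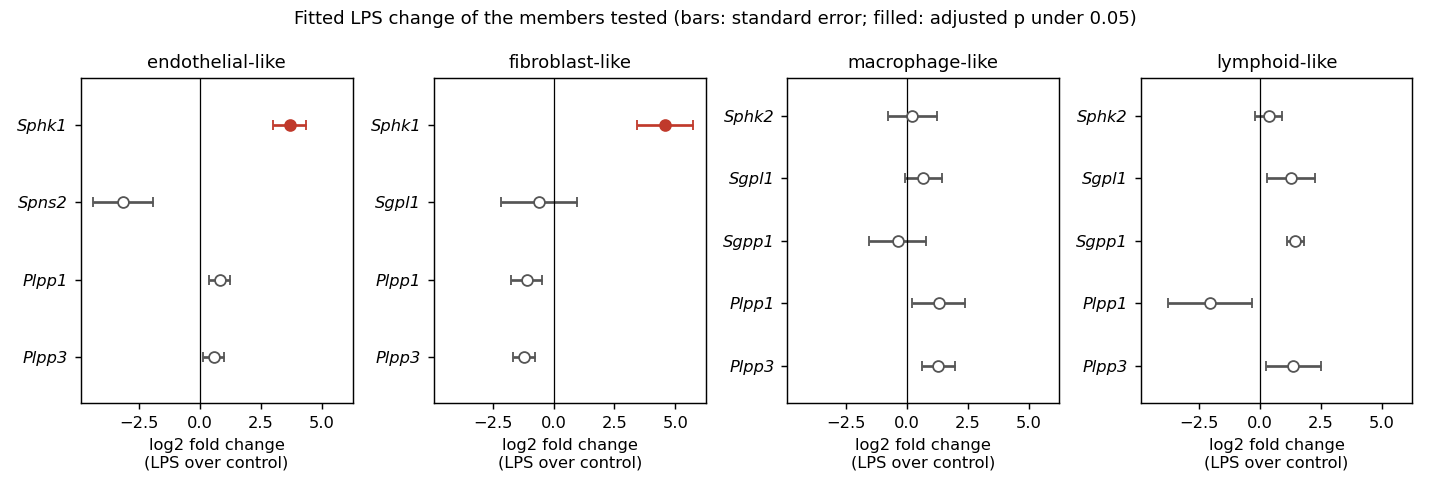
Fitted log2 fold change of LPS over control (x axis) for the members that passed the low-count filter in each class, with standard errors as bars and filled red points for an adjusted p under 0.05. Sphk1 at 3.68 and 4.58 is filled in endothelial-like and fibroblast-like cells, and the other points are open, with Spns2 at −3.17 in endothelial-like cells.

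Spns2, the S1P exporter of endothelium (chr11:72451638-72489904, minus strand), had its highest level in endothelial-like cells of control replicate 2. It had 4 UMIs in the LPS library, against 4 and 21 in the controls, or 2.45 CPM with LPS, against 13.9 and 33.5 CPM. The LPS value lay below both controls, but the fitted log2 fold change of −3.17 ± 1.24 was not called (edgeR, adjusted p = 0.0576). The level with LPS was 11.1-fold below both controls together, with a counting interval of 3.85 to 44.1. With no filter on low counts the adjusted p was 0.0126, so its call depends on that setting. Without control replicate 1 the fold change was −3.58, and without control replicate 2 the gene did not pass the filter.

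Spns2 was uneven within the control. A sub-cluster of 14 cells of control replicate 2 held 14 of the 21 UMIs of its library (87.0 CPM), up to 6 in 1 cell. The other control endothelial-like sub-clusters with at least 10 cells of a library lay between 12.3 and 15.2 CPM, and the LPS sub-clusters between 0 and 4.35. The part of sub-types in the difference was not tested.

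Beyond endothelium, Spns2 was at 30.4 CPM (9 UMIs, 13.9 to 57.7) in LPS mesothelial-like cells, against 0 UMIs in 26 cells of control replicate 2, where 3 UMIs would be 55.8 CPM. Fibroblast-like cells had 0 UMIs with LPS, against 0 and 1, and macrophage-like cells 0, against 0 and 3. Lymphoid-like cells had 5 with LPS, all in 1 cell, against 0 and 12. The endothelial-like minus lymphoid-like difference of the response was −6.62 ± 1.88 (log2; edgeR interaction, adjusted p = 0.0488), and all LPS lymphoid-like UMIs behind it lay in that 1 cell. It was the 1 member called among the class differences, where 0.906% of 11039 genes were called for endothelial-like minus lymphoid-like cells. Among the others, with no member called, 0.127% of genes were called for endothelial-like minus macrophage-like, 0.118% for endothelial-like minus fibroblast-like, 0.0544% for macrophage-like minus fibroblast-like, 0.38% for macrophage-like minus lymphoid-like and 0.154% for fibroblast-like minus lymphoid-like cells. In these differences 0 to 2 members had an unadjusted p under 0.05. Of the other pathway genes, Cers4, a ceramide synthase, was called for endothelial-like minus lymphoid-like cells (−3.03 ± 0.81, adjusted p = 0.0337). It had 118 UMIs in LPS endothelial-like cells, against 31 and 74, and 29 in LPS lymphoid-like cells, against 2 and 158.

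Mfsd2b, the exporter of red cells and platelets (chr12:4862440-4874359, minus strand), was near the floor everywhere. Endothelial-like cells had 4 UMIs with LPS, against 1 and 0. Among 679 LPS erythroid-like cells there was 1 UMI, against 0 among 260 of control replicate 2. These erythroid-like sums, of 6195137 and 1719286 UMIs, were mostly haemoglobin, at 83.2% with LPS and 79.5% in control replicate 2. At most 6 UMIs lay in any other tested sum, so no difference was detectable at this depth.

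The lyase Sgpl1, which cleaves S1P irreversibly in the endoplasmic reticulum (chr10:61098642-61147703, minus strand), was highest, among classes of at least 20 cells, in LPS monocyte-like cells, at 62.2 CPM (47.7 to 79.8). Macrophage-like cells followed with 45.2 CPM with LPS (28.0 to 69.1), against 19.9 and 40.5 in the controls, so neighbours in this order overlap in their intervals. The macrophage-like change of 0.68 ± 0.75 was not called (edgeR, adjusted p = 0.949). Endothelial-like cells had 11.6 CPM with LPS, against 10.4 and 6.38. Fibroblast-like cells had 13.5 with LPS, against 0, where 3 UMIs would be 42.7 CPM, and 39.8 (−0.60 ± 1.57, adjusted p = 0.884). Lymphoid-like cells had 14.2, against 2.76 and 9.41 (1.26 ± 1.00, adjusted p = 0.601).

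Of the S1P phosphatases of the endoplasmic reticulum, Sgpp1 (chr12:75714249-75735729, minus strand) was highest in LPS lymphoid-like cells. It had 42 UMIs with LPS, against 23 and 310, or 66.3 CPM with LPS (47.8 to 89.6), against 21.1 (13.4 to 31.7) and 31.4 (28.0 to 35.1). The LPS value lay above both controls, but the log2 fold change of 1.44 ± 0.35 was not called (edgeR, adjusted p = 0.149). No member was called among 5 tested in lymphoid-like cells, where 1.01% of 9802 genes were, 1% as higher and 0.0102% as lower. DESeq2 called none either, but Sgpp1 was called with no filter on low counts (adjusted p = 0.0198) and with the added free RNA subtraction that leaves out genes mostly of free RNA (0.0453). Sgpp1 was the 1 member with an unadjusted p under 0.05. The 2 LPS sub-clusters, of 47 and 31 cells, lay at 74.3 and 89.0 CPM, and the control ones with at least 10 cells of a library between 0 and 43.5 CPM. The 31 cells had Siglech, Irf8 and Rnase6 among their leading genes, beside the lymphoid marker Il7r. The lymphoid list of 11 genes, all detected, summed to 6078 CPM in LPS lymphoid-like cells, against 11743 and 12333 CPM in the controls. The monocyte list summed to 930 CPM with LPS (7 of 7 detected), against 245 and 160 CPM (5 and 6 detected), and haemoglobin took 2.14% of UMIs, against 0.0373% and 0.171%. Their part in the Sgpp1 difference was not tested. Most lymphoid-like cells carried thymocyte transcripts. Without barcodes holding a Rag1, Rag2, Ptcra or Arpp21 UMI, 39 LPS cells stood against 27 and 201, and the change was 1.34 (adjusted p = 0.657).

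In macrophage-like cells Sgpp1 was 15.1 CPM with LPS, against 0 and 33.5. Endothelial-like cells had 11.6 CPM with LPS, against 6.93 and 9.57, and fibroblast-like cells 12.1, against 14.2 and 28.9. Sgpp2 (chr1:78310345-78420289, plus strand), the other enzyme of this pair, had 2 UMIs over the tested class sums, both in lymphoid-like cells of control replicate 2. Over all barcodes it had 1 UMI in the LPS library, against 0 and 4 in the controls.

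Plpp3, a cell-surface phosphatase that dephosphorylates S1P and lysophosphatidic acid (chr4:105157347-105232764, plus strand), was highest in fibroblast-like cells. There it had 316 UMIs with LPS (426 CPM, 381 to 476), against 90 (1282, 1031 to 1576) and 358 (1295, 1164 to 1437). The controls were nearly equal and the LPS value lay below both. The log2 fold change was −1.22 ± 0.44 and was not called (edgeR, adjusted p = 0.0638), but with RLE scaling it was −1.25 (adjusted p = 0.0466). The level with LPS was 3.03-fold below both controls together, with a counting interval of 2.62 to 3.51.

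Both LPS fibroblast-like sub-clusters lay below the control ones. The 133 shallower LPS cells had 212 CPM and the 32 deeper ones 599, against 1001 in 23 cells of control replicate 1 and 1598 and 810 in 15 and 59 cells of control replicate 2. Single cells weighed on these sums: 1 of the deeper LPS cells held 100 of the 316 LPS UMIs, and the highest control cells held 34 of 90 and 55 of 358. After thinning to 1000 UMIs, 27 of 165 LPS cells (16.4%, 11.1 to 22.9) had a Plpp3 UMI, against 6 of 14 (42.9%, 17.7 to 71.1) and 42 of 74 (56.8%, 44.7 to 68.2). The fibroblast marker list, given above, was lower in the same LPS cells, with all 8 markers detected. Haemoglobin, a sign of free RNA, took 1.38% of their UMIs, against 0.0613% and 0.603%. The part of either in the Plpp3 difference was not tested.

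In endothelial-like cells Plpp3 was 307 CPM with LPS, against 260 and 195 (log2 0.55 ± 0.44, edgeR, adjusted p = 0.520). No class difference of the Plpp3 response was called (edgeR interactions): it was 1.61 ± 0.81 for endothelial-like minus fibroblast-like (adjusted p = 1), 2.65 ± 0.90 for macrophage-like minus fibroblast-like (adjusted p = 0.714) and −2.72 ± 0.86 for fibroblast-like minus lymphoid-like cells (adjusted p = 0.252). Macrophage-like cells had 86.1 CPM with LPS, against 9.96 and 57.3 (1.30 ± 0.68, adjusted p = 0.508), and lymphoid-like cells 48.9, against 1.84 and 36.8. A free RNA estimate was the lowest level of the gene in any class of its library with at least 50000 UMIs. It came to 9.33% of the LPS macrophage-like Plpp3 UMIs, against 18.5% and 57.9% in the controls. In lymphoid-like cells it came to 16.4% with LPS, against 100% and 90.0%. More classes reached that size with LPS, and a class that is itself the lowest gets 100% by construction. These shares are therefore not comparable between libraries. Nor is the estimate an upper bound, as free RNA may differ between classes. Haemoglobin took 0.235% of UMIs in LPS monocyte-like cells, which set the LPS estimate, against 1.24% in macrophage-like and 2.14% in lymphoid-like LPS cells. Macrophage-like cells had no member called among 5 tested, beside 3.1% of 6645 genes, 2.36% as higher and 0.737% as lower; DESeq2 called none either, and 1 member, Plpp3, had an unadjusted p under 0.05.

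**Figure D3:**
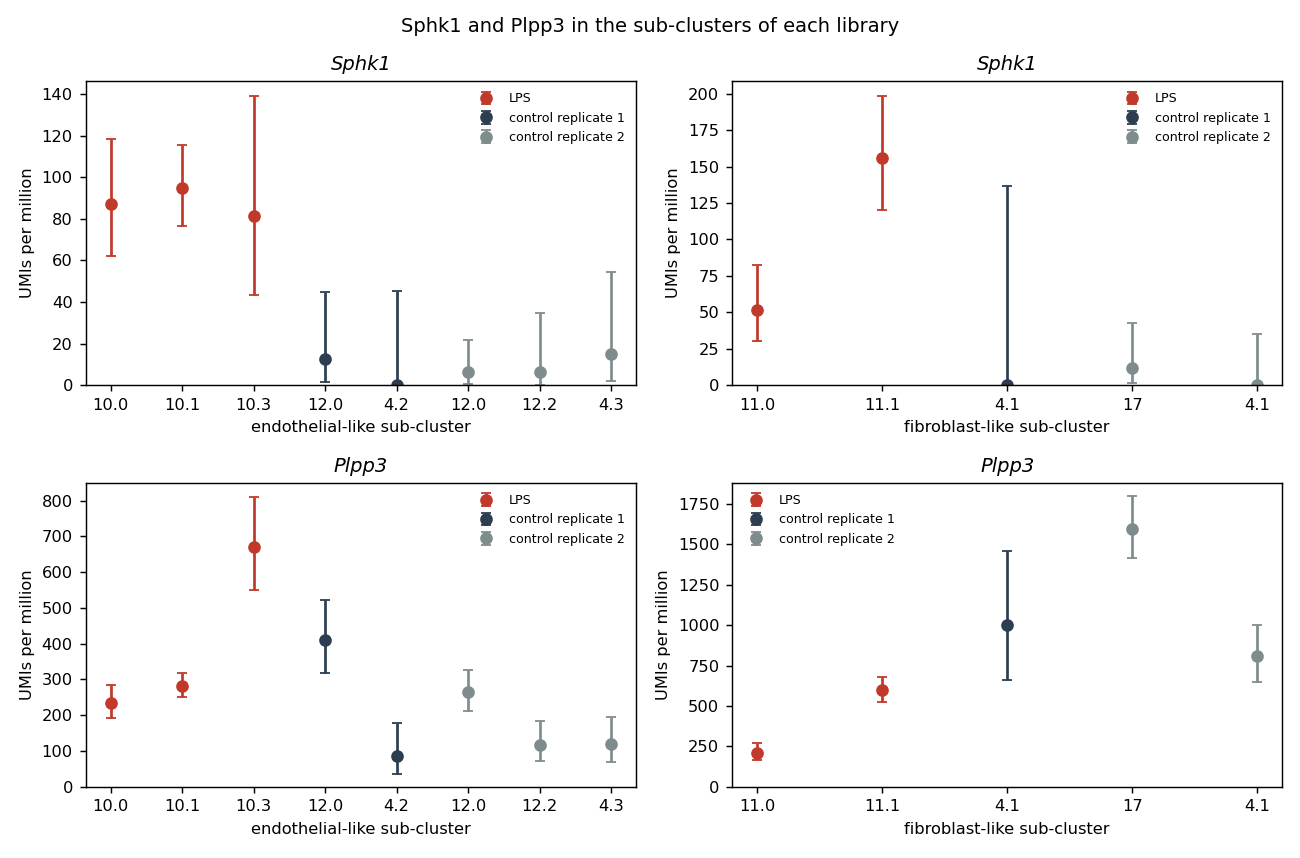
Sphk1 (top) and Plpp3 (bottom) in CPM in endothelial-like (left) and fibroblast-like (right) sub-clusters with at least 10 cells of a library, LPS in red left of the controls; bars are exact Poisson 95% intervals. Sphk1 lies between 51.5 and 156 in the LPS sub-clusters and at most at 15.1 in the control ones. Fibroblast-like cells of control replicate 1 held 0 Sphk1 UMIs, at a depth where 3 UMIs would be 42.7. Plpp3 in LPS fibroblast-like sub-clusters, at 212 and 599, lies below the controls.

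Plpp1, the related phosphatase (chr13:112800792-112867894, plus strand), was highest in endothelial-like cells, at 236 CPM with LPS (213 to 261), against 118 (81.6 to 165) and 172 (141 to 208). The LPS value lay above both controls, but the change of 0.80 ± 0.44 was not called (edgeR, adjusted p = 0.265). In fibroblast-like cells it was 28.3 CPM with LPS, against 85.5 and 79.6, which was not called either (−1.11 ± 0.64, adjusted p = 0.304). Within LPS endothelial-like cells, the sub-cluster of 98 cells had 102 CPM and those of 52 and 17 cells 289 and 282. Control sub-clusters spanned 37.0 to 252 CPM, so Plpp1 varied among endothelial-like sub-clusters in both groups.

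Over the 12 class-by-library sums, genes most like each member by Pearson's r of log2(CPM + 1) were named for members with at least 50 UMIs. For Sphk1 they were Map3k6 (r = 0.916), Vcp (0.913) and Stat3 (0.898). Those most like Plpp3 were Fn1 (0.977), Fstl1 (0.975) and Fgfr1 (0.974) and those most like Plpp1 were Tjp1 (0.966), Mecom (0.962) and Nbea (0.959). For Spns2, which had 50 UMIs over these sums and 0 in 5 of the 12, they were Pcmtd1 (0.924), Fam3c (0.920) and Smad7 (0.892). Sphk2 was most like Tent2 (0.988), Fdx2 (0.976) and Cybc1 (0.975), Sgpl1 most like Snx2 (0.895), AI413582 (0.879) and Myo9b (0.849), and Sgpp1 most like Tab2 (0.956), Wipf1 (0.944) and Ino80b (0.928). The sums share libraries and depth and are no independent samples. Each 3 genes were the highest of 6625 or 6626 compared, so high values of r arise by selection too.

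The rest of the pathway was read from 42 genes in 4 lists. In endothelial-like cells 3 were called higher and 2 lower among 30 tested, in fibroblast-like cells 2 higher and 1 lower among 22, and none among 18 in macrophage-like or 28 in lymphoid-like cells. Over all genes tested, 11.6%, 12.7%, 3.1% and 1.01% were called in that order of classes, so the lists' counts lie near the background. Median log2 fold changes over those tested were 0.015, −0.24, −0.03 and 0.31 in that order of classes, beside −0.02, 0.03, −0.05 and −0.05 over all genes tested.

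Among the 5 receptors, S1pr1, the main S1P receptor of endothelium, rose in endothelial-like cells to 762 CPM with LPS, against 302 and 211 (log2 1.68 ± 0.45, edgeR, adjusted p = 0.0018). It was the 1 receptor called in any class. In fibroblast-like cells it was 56.7 CPM with LPS, against 0 and 21.7 (adjusted p = 0.0550). There S1pr2 was 13.5 CPM with LPS, against 99.7 and 43.4 (adjusted p = 0.2197), and S1pr3 was 21.6, against 71.2 and 36.2 (adjusted p = 0.725).

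Of 17 genes of de novo ceramide synthesis, which feeds sphingosine, 12 were tested in endothelial-like and 10 in fibroblast-like cells, and 2 of them were called in both. Sptssa, a small subunit that activates serine palmitoyltransferase, the first enzyme of the route, fell to 23.3 CPM with LPS in endothelial-like cells, against 104 and 214 (−2.68 ± 0.48, edgeR, adjusted p = 5.95e-06). In fibroblast-like cells it fell to 32.4 CPM, against 85.5 and 185 (−1.80 ± 0.54, adjusted p = 0.00943). Cers6, a ceramide synthase, rose to 37.4 CPM with LPS in endothelial-like cells, against 13.9 and 6.38 (2.15 ± 0.72, adjusted p = 0.0170).

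Cers6 in fibroblast-like cells rested on few control reads, at 36 UMIs with LPS, against 1 and 1 (3.35 ± 1.47, edgeR, adjusted p = 0.0452). Degs2, a dihydroceramide desaturase, fell in endothelial-like cells, at 3 UMIs with LPS, against 2 and 26 (−3.64 ± 1.28, adjusted p = 0.0189), where the controls differed widely. The other 9 of 12 tested endothelial-like genes and 8 of 10 fibroblast-like genes of this list were not called.

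Of 14 genes of ceramide and sphingomyelin turnover, 1 of 12 tested rose in endothelial-like cells and 1 of 7 in fibroblast-like cells. Ugcg, which commits ceramide to glycosphingolipids, rose to 198 CPM with LPS in endothelial-like cells, against 27.7 and 51.0 (2.37 ± 0.47, edgeR, adjusted p = 5.64e-06). Acer3, an alkaline ceramidase that releases sphingosine, the substrate of the kinases, rose to 75.6 CPM with LPS in fibroblast-like cells, against 28.5 and 21.7 (2.09 ± 0.74, adjusted p = 0.0249). None of the 6 genes of S1P carriage and breakdown was called in any class, with 4 tested in endothelial-like, 2 in fibroblast-like and 3 each in macrophage-like and lymphoid-like cells.

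**Figure D4:**
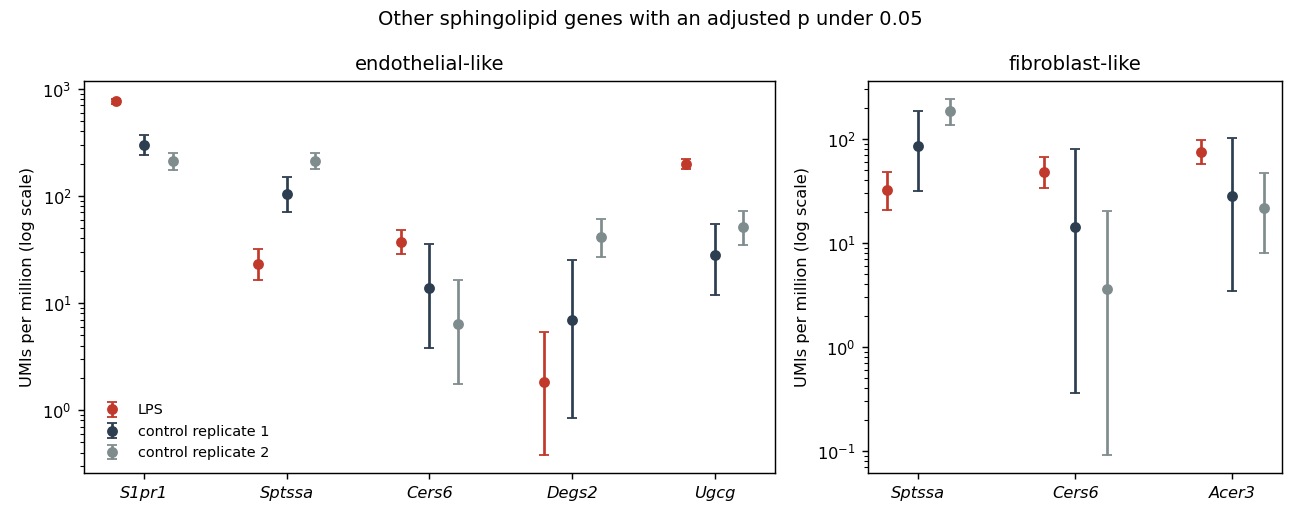
Level in CPM (log scale) of the other sphingolipid genes with an adjusted p under 0.05, in endothelial-like (left) and fibroblast-like cells (right), LPS in red left of control replicates 1 and 2; bars are exact Poisson 95% intervals. S1pr1, Cers6, Ugcg and Acer3 lie higher with LPS, and Sptssa and Degs2 lower.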

How the data were processed

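Droplet single-cell RNA was made with the 10x 3' kit. The authors deposited raw UMI counts per gene and barcode from Cell Ranger 3.1 on mm10, per the submitters' processing notes. R 4.2.1 and Seurat 4.2.0 are named there too, with no annotation release. Computed from these counts were cell classes, sums and tests. Barcodes with at least 500 UMIs, 300 genes and at most 15% mitochondrial UMIs were clustered jointly with scanpy 1.11.5 and leidenalg 0.10.2, using 2000 variable genes on values scaled to 10000 per cell, 15 neighbours, and 30 components at resolution 1.0, then 20 at 0.5 within clusters of 40 cells or more. The 9 members, mitochondrial and haemoglobin genes and Gm42418 were left out of clustering. A sub-cluster took the name of a class whose markers scored 1.5 (log2) over background and 0.5 over the runner-up, 3 or more of them being in 10% of cells at 2-fold. Sub-clusters of at least 40% Gm42418 stayed unnamed. So did those with more markers of another class among their 10 leading genes, and shallow ones with no own marker there. By these rules 17 LPS cells that scored as endothelial (4.17, against 1.55 for lymphatic endothelial) were left out of the endothelial-like class. Lyve1, a lymphatic marker, was among their leading genes. No doublet caller was run, so doublets remain.

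Raw UMIs were summed per library and class. LPS was compared with control by the quasi-likelihood test of edgeR 4.0.16 (TMM, filterByExpr), with Benjamini-Hochberg adjustment over all genes tested and calls under 0.05. With 1 LPS library and 2 controls there is 1 residual degree of freedom, the spread comes from the controls and is taken to hold for LPS, and in 3 classes the spread was taken wholly from the trend over all genes. Differences between classes were tested as interactions with library as a block. The phagocyte class of the design was taken as macrophage-like cells, since monocyte-like ones were nearly all of the LPS library (63 cells). Poisson and binomial intervals (95%, exact) and the floor of 3 UMIs cover counting error only. The test was checked on simulated counts. These held no sub-type or free RNA difference between libraries, so the check does not cover such differences. Likeness used log2(CPM + 1). Named by rule were all 9 members, pathway genes called, and the 3 genes most like each member among those with a mean of at least 20 CPM. Outside that rule, the S1P receptors tested in fibroblast-like cells were named though not called. Members, lists and motifs were chosen with earlier results of these data known. Promoters are RefSeq's (GRCm38.p6; 8 of 9 members matched) and gene positions GENCODE's on mm10. Alternatives were RLE scaling, DESeq2 1.42.0, no filter, 1 joint fit, 25% mitochondrial UMIs, a marker gate, free RNA subtracted, and each control left out.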

Additional observations from a re-analysis of the deposited data

Results flagged for a closer look

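The difference of the Spns2 response between endothelial-like and lymphoid-like cells passed the test of the difference itself (edgeR interaction with library as a block, adjusted p = 0.0488). It was −6.62 ± 1.88 on the log2 scale. Endothelial-like cells had 4 UMIs with LPS, against 4 and 21 in the controls. Lymphoid-like cells had 5 with LPS, against 0 and 12, and all 5 lay in 1 cell. With RLE scaling the adjusted p was 0.0503, and without library as a block 0.225.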

How the results depend on the processing

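The member fold changes kept their direction in 186 of 189 values under the alternatives. The exceptions, none of them called, were Sgpp1 in macrophage-like cells (0.11 with DESeq2 without independent filtering), Plpp3 there (−0.21 with monocyte and dendritic sub-clusters included) and Sgpl1 in fibroblast-like cells (0.0488 under the relaxed gate). The Sgpl1 difference between endothelial-like and macrophage-like cells turned to 0.0295 without library as a block. Sphk1 was called in endothelial-like cells in every test run except the planned free RNA subtraction (adjusted p = 0.969, against 1.05e-12 to 0.0373 in the others), and in fibroblast-like cells except that one (0.628) and DESeq2. Without each control, where no test is left, its fold change was 3.63 to 3.67 in endothelial-like and 4.196 to 8.49 in fibroblast-like cells, where 8.49 is fitted against 0 UMIs and is no bound. Macrophage-like Plpp3 was 1.04 to 2.83 and lymphoid-like Plpp3 0.68 to 4.63.

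Genes called in endothelial-like, macrophage-like, fibroblast-like and lymphoid-like cells were 1001, 206, 685 and 99. DESeq2 gave 266, 44, 130 and 172. A joint fit gave 254, 116, 202 and 335, and no filter 933 in lymphoid-like cells. The 25% mitochondrial limit gave 20 there. The planned free RNA subtraction gave 0, 30, 0 and 0, and 0 members, with 408, 185, 310 and 659 genes at an unadjusted p under 0.05. The cause was not tested.

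Chosen after seeing the data were the following. Subtraction with genes of over 50% free RNA left out was added after that result and gave 658, 379 and 562 in endothelial-like, fibroblast-like and lymphoid-like cells. DESeq2 without independent filtering, added because its default gave Sphk1 no adjusted p in fibroblast-like cells, gave 234, 28, 91 and 164. A relaxed gate gave 577, 368, 423 and 62; the planned gate left 0 to 43 cells and could not be run. Including monocyte-like and dendritic-like cells gave 442 in macrophage-like cells, and leaving out Rag1, Rag2, Ptcra or Arpp21 barcodes 326 in lymphoid-like cells.

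Members called were 1, 0, 1 and 0. The count was 2 in endothelial-like cells (Spns2 added) with no filter and with the added subtraction, and 1 in lymphoid-like cells (Sgpp1) under the same settings. It was 2 in fibroblast-like cells with RLE (Plpp3) and 0 there with DESeq2 without independent filtering. With monocyte-like and dendritic-like cells included it was 1 in macrophage-like cells (Sphk1, log2 8.16, edgeR, adjusted p = 0.000284, fitted against 0 UMIs in both controls). Of the 65 LPS Sphk1 UMIs in that pool, 52 lay in the 7 dendritic-like cells.

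No paired analysis was possible because the labels number no replicates, so numbers given in accession order pair no samples. Interactions, with library as a replicate block, called 14, 13 and 100 genes for endothelial-like minus macrophage-like, fibroblast-like and lymphoid-like cells, and 0, 1 and 0 without the block, with 355, 328 and 739 at an unadjusted p under 0.05. Depth limits Mfsd2b, Sgpp2 and control replicate 1, where 26 fibroblast-like cells held 0 to 90 UMIs of a member.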
